A study of Mus musculus with 6 samples.

Results

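Platelets were compared with bone marrow cells labelled megakaryocyte progenitors (MKP), and all 6 arrays of the study entered the comparison, 3 of each cell type. The platelet arrays came from mouse blood, and 1 array each stood for mice given PBS, CTC41-EVs and CTC41.5G-EVs. EVs commonly abbreviates extracellular vesicles, small membrane particles that cells release. The 3 MKP arrays came from mice of the same treatments, so each treatment gave 1 platelet array and 1 MKP array. The labels name no genotype, strain, age, dose or time, and they do not say what CTC41 and CTC41.5G stand for. RNA of the mice in a group was pooled for its array, so differences between arrays of a cell type hold treatment and technical spread together. Per the labels' protocols some pools went to RNA isolation directly and others were first depleted of leukocytes and red cells with beads, and the handling of each pool is not stated there. Blood was drawn by cardiac puncture into citrate and platelets were spun out, while marrow cells were lysed and fixed, so cell type and preparation cannot be told apart. The labels name both the mirVana and the RNeasy kit for RNA, and both 3 and 5 ng of input RNA. With 1 array per cell type and treatment, p-values measure the spread between these arrays after the treatment is taken into account. Signals were on the deposited log2 scale, on which a difference of 1 is a doubling.

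Platelets are cell fragments without a nucleus that megakaryocytes shed into the blood. They carry messenger RNA, ribosomes, mitochondria and granules from the parent cell, and can also take up RNA from their surroundings. With no nucleus they make no new nuclear transcripts, though their mitochondria hold DNA of their own. Megakaryocyte progenitors are dividing marrow cells, and surface markers of early megakaryocytes such as CD41 (Itga2b) and CD9 usually define them.

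The labels were checked first against 6 marker genes. Ppbp, a chemokine precursor of platelet granules, had signals of 12.10, 12.42 and 12.77 in platelets, against 5.25, 5.36 and 5.87 on the MKP arrays. Values run from PBS through CTC41-EVs to CTC41.5G-EVs here and below. Pf4, the granule chemokine platelet factor 4, had 12.35, 12.78 and 13.04 in platelets, against 6.24, 6.57 and 6.50. The cell types did not overlap for either gene, and platelets were high on every array. P2ry12, the ADP receptor that clopidogrel blocks, had 10.37, 10.16 and 10.52 in platelets, against 3.61, 3.61 and 3.94 on the MKP arrays. Clec1b, the podoplanin receptor, had 10.76, 10.57 and 10.85 in platelets, against 3.81, 4.03 and 4.01. Both receptor genes lay below background on the MKP arrays, a level defined with the detection floors below. Mpo, myeloperoxidase of neutrophil precursors, had 4.93, 4.80 and 5.03 in platelets, against 7.75, 8.22 and 8.41. Ngp, neutrophilic granule protein, had 4.38, 5.08 and 5.20 in platelets, against 8.65, 8.93 and 8.69. These 2 genes of the granulocyte line were thus low on every platelet array and high on every MKP array.

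**Figure D1:**
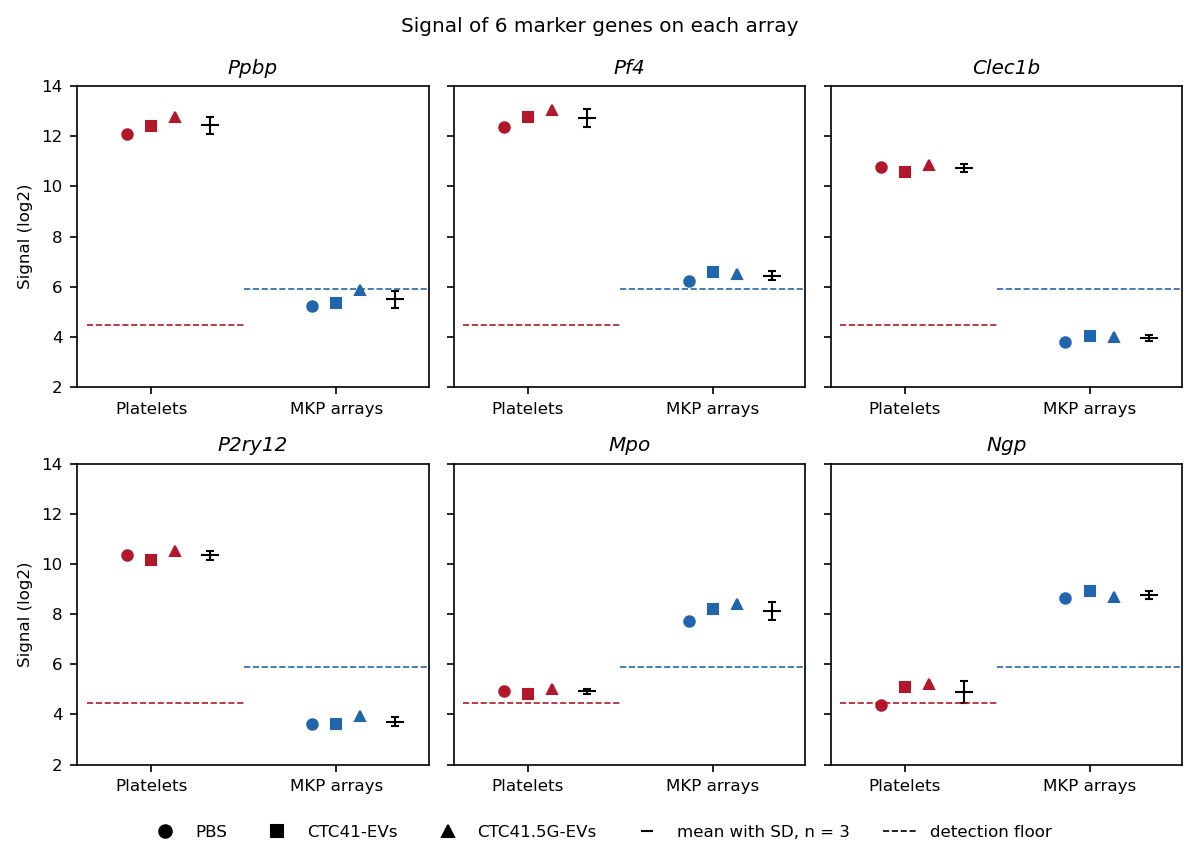
Signal (log2) of 6 marker genes, with platelets left and MKP arrays right in each panel. Points are single arrays, marked by treatment, black bars are the mean with SD over the 3 arrays, and dashed lines are the detection floors, 4.48 in platelets and 5.91 on the MKP arrays. Platelet genes stand high on every platelet array, and Mpo and Ngp on every MKP array.

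The platelet label held by its markers, and the MKP label was only weakly met. Of 23 megakaryocyte progenitor markers on the arrays, 23 were above the detection floor in platelets and 7 on the MKP arrays, namely Itga2b, Gp9, Pf4, Kit, Lat, Itgb3 and Zfpm1. The summed linear signal of the 23 markers ran from 17386 to 23396 on the platelet arrays and from 1081 to 1192 on the MKP arrays. Of 27 neutrophil precursor markers, 18 were above the platelet floor and 11 above the MKP floor, which lay higher. Their summed signal ran from 897 to 1019 in platelets and from 2374 to 2662 on the MKP arrays. In pooled samples fewer cells of a type and less RNA per cell cannot be told apart. The cells are therefore called MKP by their label here, and how far other marrow cells contributed was not tested.

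Promoters of 4 of these markers are shown, 3 of platelet genes and 1 of a granulocyte gene, to give the sequence behind the markers. GATA1 and ETS family factors such as FLI1 are known regulators of megakaryocyte genes, and the ETS factor PU.1 is one of granulocyte genes. The windows run from 250 bases before to 50 bases after the gene start, in RefSeq for GRCm38.p6, and are printed in the direction of transcription. Capitals mark the GATA factor motif AGATAA and the ETS core AGGAAG. Both strands were searched, and no match of one overlapped a match of the other in these windows. The windows lie at chr5:90772185-90772484 (plus strand) for Pf4, chr6:129397047-129397346 (plus) for Clec1b, chr3:59262936-59263235 (minus) for P2ry12 and chr11:87793534-87793833 (plus) for Mpo.
Pf4: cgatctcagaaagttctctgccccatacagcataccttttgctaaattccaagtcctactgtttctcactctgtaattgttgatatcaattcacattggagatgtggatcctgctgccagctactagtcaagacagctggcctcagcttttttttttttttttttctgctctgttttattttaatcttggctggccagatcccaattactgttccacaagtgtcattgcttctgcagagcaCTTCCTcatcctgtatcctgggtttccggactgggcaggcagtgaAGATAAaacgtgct
Clec1b: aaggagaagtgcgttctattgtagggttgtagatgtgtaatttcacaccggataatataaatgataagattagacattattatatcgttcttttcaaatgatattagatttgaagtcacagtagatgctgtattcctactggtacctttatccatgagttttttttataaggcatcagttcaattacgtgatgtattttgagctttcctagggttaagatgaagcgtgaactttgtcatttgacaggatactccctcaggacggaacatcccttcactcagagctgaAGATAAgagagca
P2ry12: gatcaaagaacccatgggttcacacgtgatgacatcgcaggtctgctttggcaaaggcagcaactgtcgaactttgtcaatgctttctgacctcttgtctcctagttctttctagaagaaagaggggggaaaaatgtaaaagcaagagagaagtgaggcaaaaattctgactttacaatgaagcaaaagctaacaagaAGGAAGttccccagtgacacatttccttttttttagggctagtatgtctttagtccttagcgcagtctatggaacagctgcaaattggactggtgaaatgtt
Mpo: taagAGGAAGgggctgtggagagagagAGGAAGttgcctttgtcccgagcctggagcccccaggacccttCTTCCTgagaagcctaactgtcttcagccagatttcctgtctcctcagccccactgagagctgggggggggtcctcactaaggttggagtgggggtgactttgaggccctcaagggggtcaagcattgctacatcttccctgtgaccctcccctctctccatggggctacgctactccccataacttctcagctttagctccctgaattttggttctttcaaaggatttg

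The Pf4 window held 1 match of each motif. Clec1b held 1 AGATAA, P2ry12 held 1 AGGAAG and Mpo held 3, while the windows of Ppbp and Ngp held neither. Of all 32851 windows of this length, 11.2% held AGATAA and 35.4% held AGGAAG, so a match is common and is a description of the letters only.

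Genes were sorted by whether their signal stood above background in each cell type. Chemosensory receptor genes, which encode olfactory, vomeronasal and taste receptors of sensory neurons, served as the background set, and the detection floor was the 95th percentile of 1409 such genes. It lay at 4.48 in platelets and 5.91 on the MKP arrays, 1.43 apart, so a gene had to be brighter on the MKP arrays to count as detected there. In platelets 14369 of the tested genes (76.1%) were detected, and on the MKP arrays 2935 (15.5%). A gene was called where its p from limma, adjusted by the Benjamini-Hochberg method, was 0.05 or less and the difference was at least 1.5-fold. Gained genes were called higher and detected in platelets alone, and enriched genes were called higher and detected in both cell types. Retained genes were detected in both, were not called, and had a 90% confidence interval of the difference within 1.5-fold. Reduced genes were called lower and detected in both, and lost genes were called lower and detected on the MKP arrays alone.

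Of 18875 tested genes, 3063 (16.2%) were higher and 4854 (25.7%) lower in platelets, with a median difference of -0.26. By fate, 2518 (13.3%) were gained, 545 (2.89%) enriched, 571 (3.03%) retained, 1214 (6.43%) reduced and 170 (0.901%) lost. This split rests on the separate floors, since with 1 floor for all arrays 1425 genes were gained, 1401 enriched, 2607 retained and 2659 lost. Of the 2518 gained genes, 955 had a platelet mean under the MKP floor, so no lower bound on their fold can be given. The other 13857 (73.4%) stayed unresolved, of which 3470 were called lower without rising above the MKP floor and 10387 were not called. The 3 pairs of arrays pointed the same way for 7912 of the 7917 genes called in either direction (41.9% of those tested). They did so for 16043 of all tested genes (85%), and a call itself favours pairs that agree. The groups did not overlap for 14804 genes (78.4%). The counts of genes called higher and lower depended on how arrays were scaled to each other. Over the 4 scalings tried, 3063 to 7544 genes were higher and 1044 to 4854 lower. Of the genes called on the deposited values, 3062 of the 3063 stayed higher in all 4, and 1042 of the 4854 stayed lower. The median of -0.26 was 0.055 after quantile normalization, 0.11 with equal medians and 0.45 with chemosensory centring. Which genes lie within 1.5-fold thus depends on the scaling too, and genes named as retained below are so on the deposited values.

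**Figure D2:**
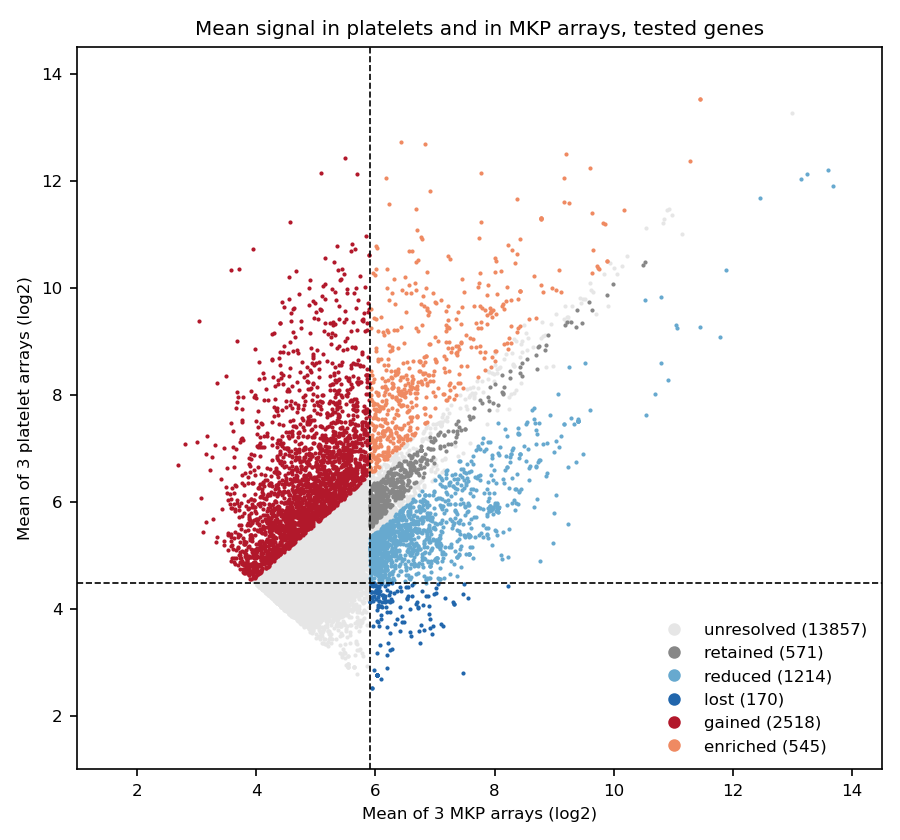
Mean signal of the 3 platelet arrays (vertical axis, log2) against that of the 3 MKP arrays (horizontal axis, log2) for the 18875 tested genes, coloured by fate. Dashed lines are the detection floors, 4.48 in platelets and 5.91 on the MKP arrays. Gained genes fill the upper left, where 2518 genes lie, and lost genes, 170 in number, the lower right.

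Transcripts of the platelet surface and its signalling were mostly gained. Of 29 tested platelet receptor genes, 23 rose and 0 fell, with a median difference of 2.76 beside -0.26 over all tested genes, and 20 of them were gained. Gp6, the collagen receptor, had 9.92, 9.84 and 10.24 in platelets, against 5.52, 5.84 and 5.66 on the MKP arrays, a difference of 4.33 (SE 0.18, adjusted p = 3.03e-06). Since the MKP mean was under its floor, the gain is read from the floor, as at least 17.1-fold, and other gained genes are treated likewise. With gained and lost genes set to their difference from the floor, or to 0 where it gives no bound, the median of the receptor list was 1.96 in place of 2.76. By the same measure it was 0.88 for granule cargo, 0.50 for integrin signalling, 1.21 for actin, 0.40 for tubulin and 0.36 for Rab and Arf genes. It was 0.41 for the ubiquitin system, 0.31 for the proteasome, 0.30 for nuclear oxidative phosphorylation, 3.16 for mitochondrially encoded RNAs, 0.54 for ribosomal proteins and 0.11 for translation factors. Some lists kept little or nothing by this measure, with 0.24 for SNARE and secretion genes and 0.030 for chaperones. Granule biogenesis and lysosome genes and splicing factors had 0. Itgb3, the beta chain of the fibrinogen receptor, was enriched, with 9.75, 9.40 and 10.15 in platelets, against 6.07, 6.17 and 6.45, a difference of 3.53 (SE 0.18). Integrins switch to their active form through Rap1 and its partners, and 33 of 46 tested genes of that pathway rose while 1 was lower, with a median of 1.49. Rap1b, the main small GTPase of this switch in platelets, had 11.05, 10.78 and 11.06 in platelets, against 5.59, 5.96 and 5.998. Parvb, a partner of integrin-linked kinase, was at least 26.0-fold higher, and the phosphatase gene Ptpn11 at least 11.4-fold. The adaptor Pxn, paxillin, was the 1 retained gene of the list, at 5.81 in platelets and 6.16 on the MKP arrays. The member called lower was Plcb2, a phospholipase C, at 4.91 in platelets and 5.61 on the MKP arrays, and it was not called after quantile or median scaling.

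Granule contents and part of the machinery of their release were also higher. Of 29 tested cargo genes, 18 rose and 1 fell, with a median of 1.52. Thbs1, thrombospondin 1, an adhesive protein of alpha granules, had 10.63, 10.56 and 11.03 in platelets, against 5.82, 6.03 and 6.23 on the MKP arrays. F5, coagulation factor V, had 9.55, 9.49 and 9.87 in platelets, against 4.43, 4.38 and 4.62. Both were apart on every array, by 4.71 (SE 0.17) for Thbs1 and by at least 13.3-fold for F5. The chemokine gene Ccl5 was retained, at 6.23 in platelets and 6.05 on the MKP arrays. The member called lower was Timp1, a protease inhibitor, at 4.75 in platelets and 5.55 on the MKP arrays, and it was not called under any other scaling. Of 24 SNARE and secretion genes, 11 rose and 2 fell. Snap23, the SNARE that platelets use for granule release, had 8.87, 8.57 and 8.94 in platelets, against 4.69, 4.45 and 4.22. Genes of granule biogenesis and lysosomes were more mixed, with 13 of 36 higher and 3 lower, and a median of 0.19. Lamp2, a lysosome membrane protein, was at least 9.33-fold higher, while Hps6 and Hps1 of granule biogenesis were called lower, with differences of -0.83 and -0.64, and lost that call after quantile scaling. Alox12, the platelet lipoxygenase, was gained, with 10.02, 9.76 and 10.30 in platelets, against 5.01, 5.16 and 5.21. The eicosanoid list it belongs to had 6 of 18 genes higher and 1 lower, with a median near that of no difference (0.0049).

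Cytoskeleton and membrane traffic followed the same pattern. Of 47 tested actin cytoskeleton genes, 38 rose and 0 fell (median 1.54), and of 27 tubulin and proplatelet genes, 15 rose and 0 fell (median 0.74). Myl9, a myosin light chain, had 10.67, 10.64 and 11.04 in platelets, against 5.35, 5.25 and 5.47 on the MKP arrays. Tubb1, the tubulin of the platelet marginal band, had 9.84, 9.71 and 10.19 in platelets, against 5.31, 5.36 and 5.32. Tubulin genes did not move as one. Tubb5 was retained, with 6.58, 6.21 and 6.50 in platelets, against 5.91, 6.47 and 6.73, ranges that overlap, and a difference of 0.06 whose 90% interval ran from -0.31 to 0.43. Tubb6 was retained as well, at 6.18 in platelets and 6.10 on the MKP arrays, and so was the actin-binding Coro1a, at 6.41 and 6.55. Of 29 Rab and Arf GTPase genes, 20 rose and 0 fell (median 1.05). Rab11a, of recycling endosomes, had 7.58, 7.26 and 7.55 in platelets, against 3.47, 3.63 and 3.63, and Arf6, of endocytosis, was retained at 7.21 in platelets and 6.91 on the MKP arrays.

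Protein turnover differed by branch. Of 40 tested ubiquitin system genes, 28 rose and 0 fell, with a median of 1.05. Of 37 proteasome genes, 14 rose and 0 fell, with a median of 0.50. The ubiquitin ligase gene Cbl had 8.85, 8.66 and 9.20 in platelets, against 5.18, 5.34 and 5.67 on the MKP arrays. Psme3, a proteasome activator, was at least 6.54-fold higher, while the subunit gene Psmb2 was retained, at 6.29 in platelets and 6.11 on the MKP arrays. Of 32 autophagy and mitophagy genes, 12 rose and 0 fell. Bnip3l, a mitophagy receptor that clears mitochondria from maturing red cells, had 8.84, 8.61 and 9.03 in platelets, against 5.10, 5.07 and 4.91. Of 32 chaperone genes, 16 rose and 0 fell, but the abundant heat shock cognate Hspa8 was retained, with 10.50, 10.18 and 10.59 in platelets, against 10.20, 10.47 and 10.81. Its arrays overlapped, and the 90% interval of its difference ran from -0.53 to 0.39.

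Respiration genes of both genomes were higher. Of 70 nuclear genes of oxidative phosphorylation, 45 rose and 0 fell, with a median of 0.72. Cox5a, a subunit of cytochrome oxidase, had 10.21, 9.90 and 10.30 in platelets, against 4.64, 5.02 and 5.06 on the MKP arrays. Of 7 tested mitochondrially encoded RNAs, 6 rose and 0 fell, with a median of 4.16. These 7 were the only ones of 50 listed that a probe named alone, and the 1 not called differed by 0.28. Their summed linear signal differed less than the median, at 20279 to 23824 in platelets and 10118 to 11518 on the MKP arrays. ND2, a subunit of complex I, had 11.16, 10.46 and 11.24 in platelets, against 6.63, 6.71 and 6.98, and COX2 had 9.24, 8.40 and 8.90, against 4.41, 4.75 and 4.89. The CTC41-EVs array was the lowest of the platelet arrays for both genes, and both stayed apart from the MKP arrays. Genes of the mitochondrial ribosome, which translates those messages, differed little. Of 60 tested, 3 rose and 1 fell, with a median of -0.033, and Mrps14 was retained at 5.89 in platelets and 5.91 on the MKP arrays. Antioxidant enzymes rose in 16 of 28 cases with 0 falling, and catalase, Cat, had 10.04, 9.66 and 10.29 in platelets, against 4.79, 4.89 and 4.95. Of 24 glycolysis genes, 8 rose and 0 fell, with a median of -0.0036. Gapdh was retained, with 8.75, 8.89 and 9.09 in platelets, against 8.59, 8.78 and 8.86. Its 90% interval of -0.18 to 0.50 lay within 1.5-fold on the deposited values. Against this, the glucose transporter gene Slc2a3 was at least 8.84-fold higher.

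Translation genes split by role. Of 35 tested cytosolic ribosomal protein genes, 20 rose and 0 fell, of which 16 were enriched rather than gained, with a median of 0.90. The median was 1.31 in the PBS pair of arrays, 0.43 in the CTC41-EVs pair and 0.61 in the CTC41.5G-EVs pair, and without the PBS platelet array it was 0.55 (0.59 without the PBS MKP array). Rpl41 had 12.32, 12.56 and 12.62 in platelets, against 8.66, 9.24 and 9.68 on the MKP arrays, while Rps28 was retained at 6.03 in platelets and 6.06 on the MKP arrays. Of 189 tested pseudogenes of ribosomal proteins, 133 rose and 4 fell, with a median of 0.91, and their probes cannot be assumed to read them apart from the parent genes. Of 44 translation factor genes, 19 rose and 0 fell (median 0.47). Pabpc1, the poly(A)-binding protein, had 9.46, 9.25 and 9.60 in platelets, against 5.30, 6.19 and 6.43. Eif5a was retained, with 6.73, 6.47 and 6.73 in platelets, against 6.51, 6.57 and 6.87. Aminoacyl-tRNA synthetases, which charge transfer RNAs, had 1 of 25 genes higher and 4 lower, with a median of -0.12 that turned to 0.21, 0.26 and 0.60 under the other scalings.

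Lists of genes of dividing cells and of the nucleus had small median differences, though single genes differed more. Of 31 tested DNA replication genes, 3 rose and 12 fell, with a median of -0.36, but under the other scalings the median ran from -0.021 to 0.35 and 0 of the 12 stayed called lower in all of them. Uhrf1, which maintains DNA methylation, had 5.23, 5.31 and 5.24 in platelets, against 6.001, 6.08 and 6.20 on the MKP arrays. Tk1, thymidine kinase, had 5.36, 5.26 and 5.05 in platelets, against 5.83, 6.12 and 6.05. Both were reduced, and neither call held with arrays scaled to the same median. Of 28 mitosis genes, 4 rose and 6 fell, with a median of -0.22 that turned positive under the other scalings (0.11 to 0.49). Mki67, the proliferation antigen, was among those higher, with 6.33, 6.21 and 6.09 in platelets, against 4.30, 4.83 and 4.94. Of all tested genes, 16.2% were higher and 25.7% lower. Of 35 nucleolus and ribosome biogenesis genes, 3 rose and 4 fell, and of 42 splicing factors, 10 rose and 1 fell. Npm1, nucleophosmin, had 6.85, 6.38 and 6.49 in platelets, against 4.97, 5.52 and 5.57. The linker histone H1f2 was gained, with 10.81, 10.39 and 10.84 in platelets, against 5.65, 5.46 and 5.64. The transcription factor Gata2 was retained, at 6.02 in platelets and 6.19 on the MKP arrays, and so was its cofactor Ldb1, at 6.09 and 6.03.

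**Figure D3:**
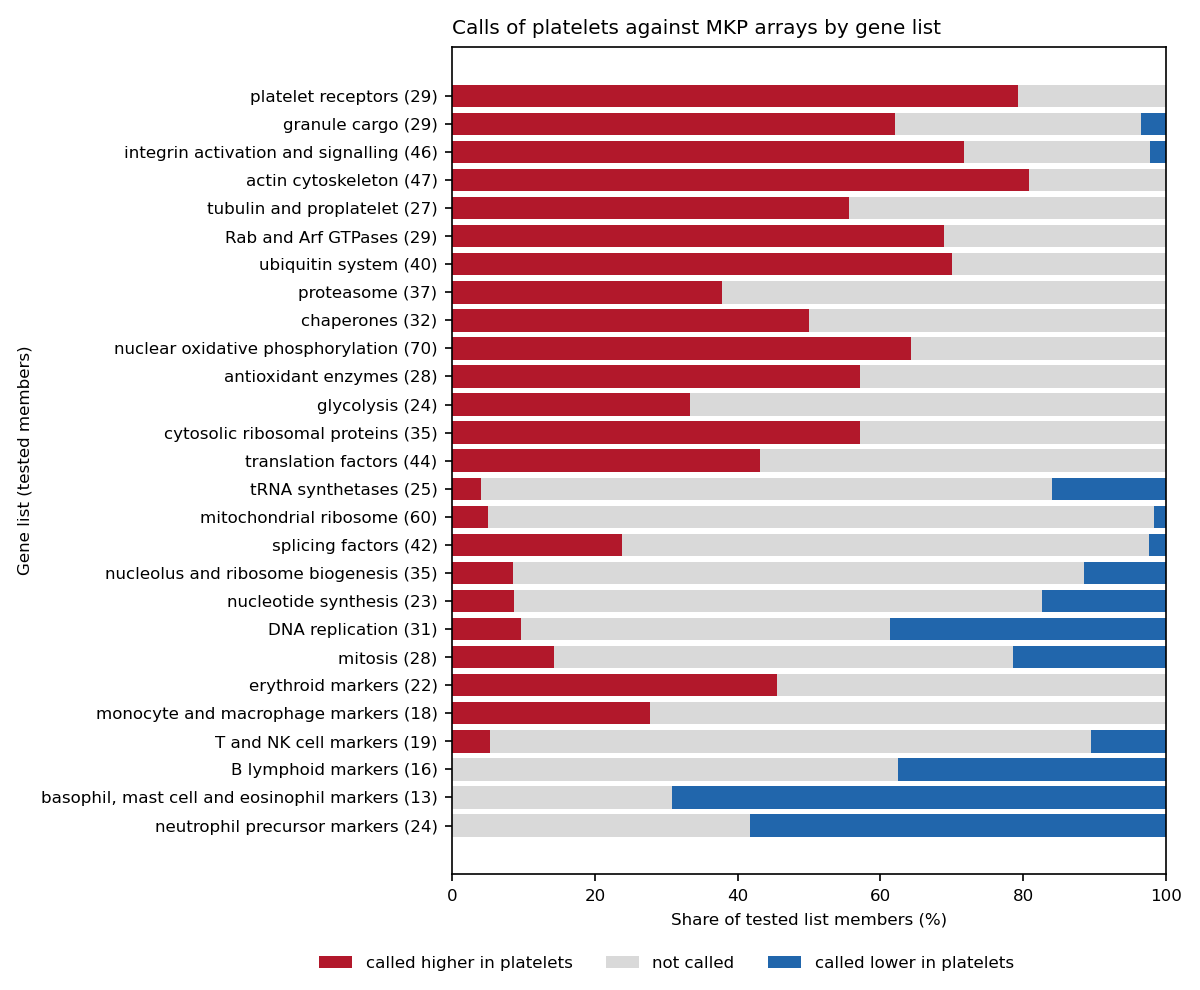
Share of the tested members of 27 gene lists (horizontal axis, %) called higher (red), not called (grey) or called lower (blue) in platelets against MKP arrays. The number in brackets after each list is its tested members. Receptor, actin and ubiquitin lists are mostly red, and the neutrophil and basophil marker lists hold no red.

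Markers of granulocytes and mast cells were lower in platelets. Of 24 tested neutrophil precursor markers, 0 rose and 14 fell, with a median of -0.80 (-0.44 to -0.088 under the other scalings), and 8 of the 14 stayed lower in all 4 scalings. Of all tested genes, 16.2% were higher and 25.7% lower. Among the 14, 8 were reduced and 1 was lost, and the others lay under the MKP floor. Elane, neutrophil elastase, was lost, with 4.15, 4.24 and 4.19 in platelets, against 6.81, 7.43 and 7.25 on the MKP arrays. Measured from the platelet floor it was at least 6.44-fold lower. Camp, cathelicidin, was reduced, with 5.85, 6.08 and 5.77 in platelets, against 8.68, 8.65 and 8.65. Not all markers of the list were lower. Csf3r, the receptor of granulocyte colony-stimulating factor, was retained at 6.39 in platelets and 6.09 on the MKP arrays, and Hp, haptoglobin, at 6.15 and 6.25. Of 13 basophil, mast cell and eosinophil markers, 0 rose and 9 fell, of which 5 stayed lower in all 4 scalings. Among the 9, 4 were reduced and 1 was lost, and the others lay under the MKP floor. Mcpt8, a basophil protease, was lost, with 4.07, 4.01 and 3.90 in platelets, against 6.42, 6.86 and 6.46. Kit, the stem cell factor receptor of progenitors and mast cells, had 4.53, 4.71 and 4.67 in platelets, against 5.80, 6.06 and 6.22, and fell by 1.39 (SE 0.09). Of 16 B lymphoid markers, 0 rose and 6 fell, of which 1 stayed lower in all 4 scalings, and their median of -0.48 was 0.23 with arrays centred on chemosensory genes. Among the 6, 1 was reduced and the others lay under the MKP floor. The 6 were led by Vpreb2 of the pre-B cell receptor, at 5.40 in platelets and 6.93 on the MKP arrays. Fas, the death receptor, had 6.07, 5.89 and 5.88 in platelets, against 7.70, 8.22 and 8.72, and fell by 2.27 (SE 0.23, adjusted p = 0.000128). Bglap, osteocalcin of bone-forming cells, had 4.99, 5.06 and 5.12 in platelets, against 6.42, 6.57 and 6.65.

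Transcripts of red cells were higher on the platelet arrays. Of 22 tested erythroid markers, 10 rose and 0 fell, and 21 of 23 on the arrays were above the floor in platelets, against 1 of 23 on the MKP arrays. Their summed linear signal ran from 2847 to 3250 in platelets and from 803 to 838 on the MKP arrays. Alas2, the erythroid enzyme of haem synthesis, had 9.88, 9.82 and 9.85 in platelets, against 5.12, 4.99 and 5.19. The 4 probes that name several globin genes together had means of 10.8 to 13.4 in platelets and 5.35 to 6.36 on the MKP arrays, and the PBS array was the lowest of the platelet arrays on each of the 4. Of 18 monocyte and macrophage markers, 5 rose and 0 fell, beside 16.2% of all tested genes higher, with a median of 0.17 that was -0.017 with no floor for testing. Lyz2, lysozyme of myeloid cells, had 9.94, 9.77 and 10.02 in platelets, against 7.05, 6.91 and 6.94. Of 19 T and NK cell markers, 1 rose and 2 fell, and Nkg7 of cytotoxic cells was retained, at 7.39 in platelets and 7.40 on the MKP arrays. What red cells and leukocytes in the blood preparations added to the gains above was not tested.

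Direction differed between gene classes. Among protein-coding genes without chemosensory receptors, 2103 of 12634 were higher and 2302 lower (median -0.22), and 14 were lost. In all 4 scalings 2103 of these stayed higher and 166 stayed lower, and the median was 0.10 to 0.49 under the other scalings. Of 308 tested chemosensory receptor genes, 0 were higher and 273 lower, with a median of -1.22. Only these 308 of the 1409 passed the floor for testing, and over all 1409 the median difference was -0.62. In the lost group, 40 of the 54 protein-coding genes were chemosensory. Small nuclear RNA genes, the RNAs of the spliceosome, were higher in 4 and lower in 310 of 370 cases, with a median of -1.68. Small nucleolar RNA genes, which guide the modification of ribosomal RNA, were higher in 2 and lower in 352 of 471 cases (median -0.98). Long noncoding RNA genes were higher in 51 and lower in 647 of 1560 cases, with a median of -0.49 that was 0.22 with arrays centred on chemosensory genes. Of 131 immunoglobulin and T cell receptor V segments, 1 was higher and 103 lower (median -0.93, -0.61 to -0.22 under the other scalings). The median of the tested chemosensory genes, read as background here, lay between those of small nuclear and small nucleolar RNA genes. The median over all 1409 was smaller in size, and what of the small RNA differences is background was not tested. In all 4 scalings, 238 of the 310 small nuclear, 151 of the 352 small nucleolar, 132 of the 273 chemosensory, 69 of the 647 long noncoding RNA and 30 of the 103 V segment genes stayed lower. Among all tested genes 25.7% were lower. Many of the genes called lower lay under the MKP floor, and only those reduced or lost were above it. These numbered 378 and 14 of the protein-coding class, 208 and 28 of small nuclear and 143 and 49 of small nucleolar RNA genes. For long noncoding RNA genes they were 88 and 4, and for V segments 29 and 2.

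**Figure D4:**
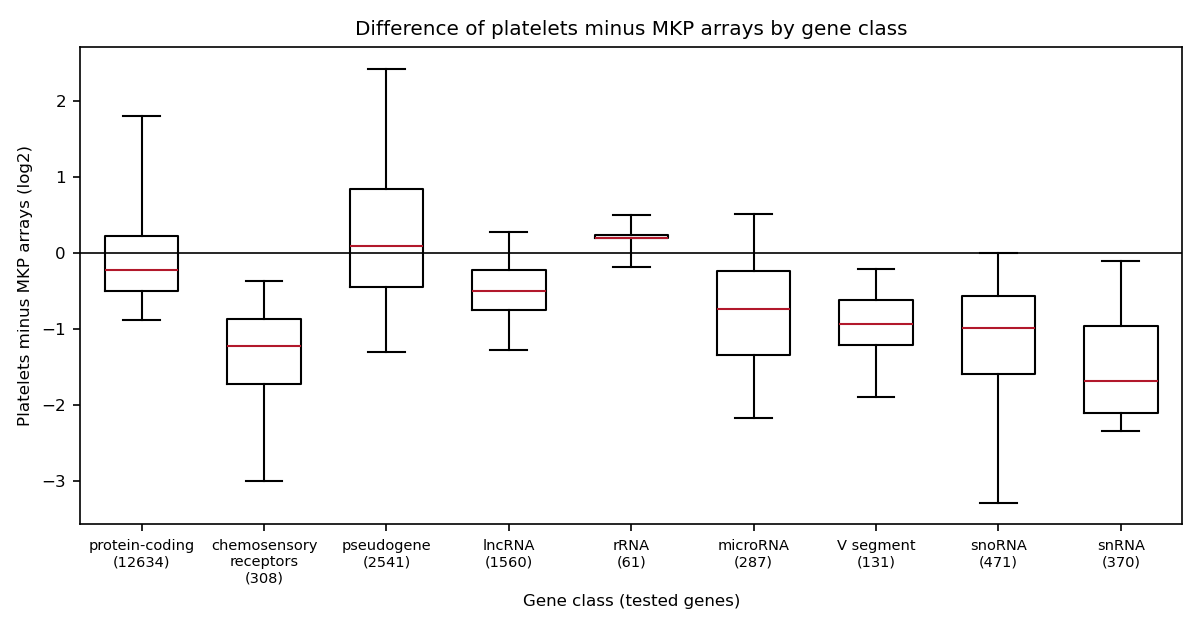
Difference of platelets minus MKP arrays (log2, vertical axis) for tested genes of 9 classes, with the number of genes in brackets, where chemosensory receptors are left out of the protein-coding class. Boxes span the quartiles, red lines are medians and whiskers run from the 5th to the 95th percentile. Pseudogenes and ribosomal RNA have medians above 0. The snRNA median of -1.68 lies below that of the tested chemosensory receptors, -1.22, while snoRNA at -0.98 and miRNA at -0.73 lie above it. Over all 1409 chemosensory receptors the median is -0.62.

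Abundant structural RNAs differed in direction. The Y RNA genes, Rn28s1, Rn4.5s and the microRNA genes of the paragraphs after this one were singled out after their values were seen. Rny1 and Rny3 encode Y RNAs, small cytoplasmic RNAs bound by the Ro60 protein. Rny1 had 10.53, 10.70 and 10.83 in platelets, against 6.89, 6.39 and 6.55 on the MKP arrays, a difference of 4.08 (SE 0.21, adjusted p = 6.65e-06). Rny3 had 12.05, 11.999 and 12.13 in platelets, against 9.25, 9.24 and 9.005, a difference of 2.89 (SE 0.23). Rn28s1, the RNA of the large ribosomal subunit, had 11.47, 11.24 and 11.63 in platelets, against 9.80, 10.09 and 10.61. Rn7s1 and Rn7s2 encode 7SL, the RNA of the particle that guides secretory proteins, and shared 1 set of values, at 13.53 ± 0.60 in platelets and 11.45 ± 0.31 on the MKP arrays (SD, n = 3 each), and they were not called when genes of all signals were tested. Rn4.5s was lower, with 7.64, 7.68 and 7.83 in platelets, against 9.10, 9.65 and 10.06, a difference of -1.89 (SE 0.21, adjusted p = 0.000212). Rn7sk, a nuclear RNA that restrains transcription elongation, had 11.54, 11.64 and 11.85 in platelets, against 12.18, 12.47 and 12.69. Its difference of -0.77 (SE 0.26) passed the test as deposited and under none of the other scalings. Snord4a, a small nucleolar RNA, was lost, with 2.94, 2.07 and 3.35 in platelets, against 7.67, 7.52 and 7.21, at least 7.95-fold lower from the platelet floor. Of 67 tested 5S ribosomal RNA genes, 38 were retained, but 35 of the 67 carried the values of another gene.

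Of 287 tested microRNA genes, 13 were higher and 167 lower in platelets, with a median of -0.73. Of the 167, 94 were reduced and 10 lost, and the others lay under the MKP floor. The 13 stayed higher in all 4 scalings and 73 of the 167 stayed lower, and the median was -0.016 with arrays centred on chemosensory genes. MicroRNAs bind targets through the seed, bases 2 to 8 of the mature strand. The arrays do not tell a mature strand from its precursor or the 2 arms of a hairpin apart, so a value belongs to the gene. A mature sequence was found for 240 of the 287 genes in RefSeq for GRCm38.p6. Those of 5 genes called higher are shown because few genes of the class were higher, with the seed in capitals.
miR-692: aUCUCUUUgagcgccucacuc
miR-3088-5p: gCUAUGCAguuguucaugagcu
miR-3088-3p: uUCAUGAGcagcugcaaaggugu
miR-219c-5p: gGACGUCCagacgcaacucucg
miR-219c-3p: cGAGAAUUgcguuuggacaauc
miR-6240: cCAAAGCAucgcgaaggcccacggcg
miR-703: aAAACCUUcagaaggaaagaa

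Mir692-1 had 10.31, 10.32 and 10.45 in platelets, against 5.94, 6.25 and 6.39 on the MKP arrays, a difference of 4.16 (SE 0.17, adjusted p = 3.18e-06). Mir3088 had 7.60, 7.27 and 6.71 in platelets, against 5.01, 4.23 and 4.40, at least 2.44-fold higher from the MKP floor. Mir219c was called higher too, but by that measure at least 1.30-fold only. Platelet and MKP arrays did not overlap for these genes. Mir6240 rose by 1.39 (SE 0.23) and Mir703 by 1.24 (SE 0.27), and both were enriched. Mir181d, of a family expressed in blood cells, was retained, at 7.04 in platelets and 7.15 on the MKP arrays. Mir181c of the same family was reduced, at 5.08 in platelets and 6.70 on the MKP arrays. The 7 mature strands of these 5 genes had 7 different seeds.

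All 31 tested microRNA genes of the Mir297, Mir466, Mir467 and Mir669 families, which are rodent families with many copies, were lower in platelets, with differences from -2.92 to -0.97 and a median of -1.99. Under all 4 scalings 30 of the 31 stayed lower, and 8 of the 31 shared their values with another gene. A mature sequence is given for 4 of them and for 2 further genes with large negative differences, with seeds in capitals as above.
miR-466j: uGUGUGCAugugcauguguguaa
miR-466k: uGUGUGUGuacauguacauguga
miR-467f: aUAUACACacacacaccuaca
miR-669n: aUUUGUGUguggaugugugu
miR-872-5p: aAGGUUACuuguuaguucagg
miR-872-3p: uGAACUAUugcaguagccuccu
miR-6994-5p: aCAAAGGUgggugaagccgguga
miR-6994-3p: aACGAUCUucuccgucuuugc

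The 4 family members carry stretches of alternating letters, and no seed of theirs was the same. Mir467f had 8.35, 8.18 and 8.30 in platelets, against 10.66, 10.86 and 11.23 on the MKP arrays, and Mir466j had 6.77, 6.65 and 6.79, against 9.38, 9.28 and 9.44. Both were tightly grouped within platelets and well apart from the MKP arrays. Mir872 had 4.85, 3.13 and 3.06 in platelets, against 6.86, 7.09 and 6.95, so that its PBS platelet array stood above the other platelet arrays. Mir6994 had 5.16, 6.48 and 5.73 in platelets, against 8.95, 9.27 and 8.77. Seeds were compared among 85 microRNA genes with a mature sequence that were gained, enriched, reduced or lost. Genes called lower but unresolved were not included. Among the 85, 2 seeds were shared by more than 1 gene. They were GGCAUCU of miR-680, whose 3 gene copies differed by -1.57 to -1.13, and GUAACAG of miR-194-5p, whose 2 copies differed by -1.29 and -1.06.

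**Figure D5:**
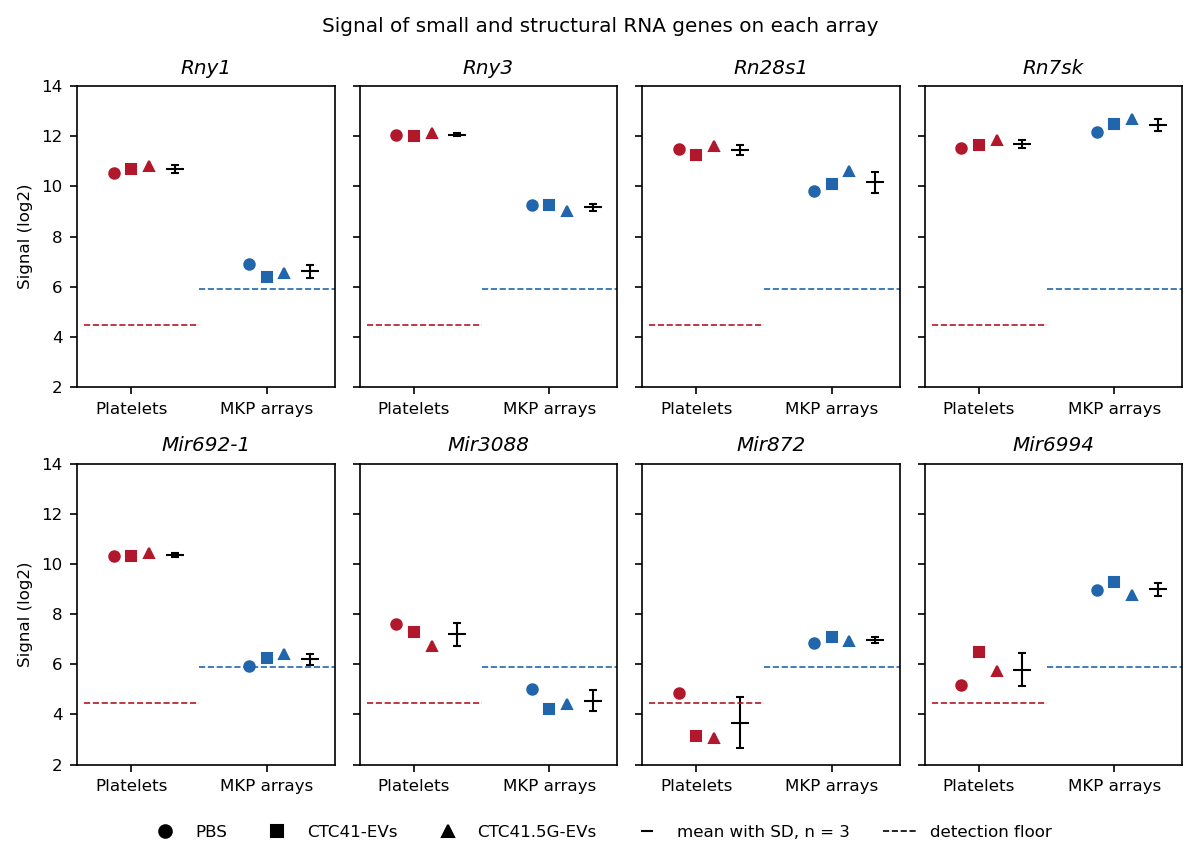
Signal (log2) of 8 small and structural RNA genes, with platelets left and MKP arrays right in each panel. Points are single arrays, marked by treatment, black bars are the mean with SD over the 3 arrays, and dashed lines are the detection floors of 4.48 and 5.91. Y RNA genes, Rn28s1, Mir692-1 and Mir3088 are higher in platelets, and Rn7sk, Mir872 and Mir6994 are lower.

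Promoter windows differed in composition between the fates. Windows of gained protein-coding genes had a median GC content of 62.7% and 23 CG pairs, over 2007 windows of 1550 genes, with chemosensory receptors left out. Those of enriched genes had 60.7% and 19 CG pairs, and those of retained genes 61.3% and 20. Windows of reduced genes had 55.0% and 5 CG pairs over 370 windows. All tested protein-coding genes of this kind had 59.7% and 17 CG pairs, and chemosensory receptor genes 35.7% and 1. AGATAA was found in 6.63% of the windows of gained genes and in 7.19% of those of all tested protein-coding genes. AGGAAG was found in 33.8% of the gained and 33.9% of all. CGGAAG, an ETS core that holds a CG pair, was found in 29.6% of the windows of gained genes, 35.8% of enriched, 26.4% of retained and 17.6% of reduced genes, against 24.2% of all tested protein-coding genes, and its share thus ran with the number of CG pairs except in enriched genes. By list, AGGAAG lay in 78.3% of 23 windows of neutrophil precursor markers, 65.0% of 20 windows of megakaryocyte progenitor markers, 54.2% of 24 windows of platelet receptors and 41.7% of 12 windows of basophil, mast cell and eosinophil markers, against 35.4% of all windows. These lists were chosen for their cell type, and the shares are given without a test.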

How the data were processed

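Clariom D Mouse arrays measured RNA of 3 platelet pools and 3 MKP pools, 1 array per treatment and cell type. The values are log2 signals as the authors deposited them, made with Affymetrix Expression Console 1.4.1.46 per the submitters' processing notes, while the series' design text names MAS5.0. A genome build for the probes was not given in the sources used here. No further scaling was applied. Of 72688 probes, 30604 named 1 gene symbol, 2146 several and 39938 none, giving 30142 genes, and 827 symbols were updated through RefSeq. Where a gene had several probes, the probe with the highest mean stood for it, with the mean of its probes as an alternative.

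Genes with a mean at or above the 50th percentile of all probes (4.23) were fitted with limma 3.58.1 in R 4.3.3, with treatment and cell type as terms and an intensity trend, leaving 2 residual degrees of freedom. Calls needed p, adjusted by Benjamini-Hochberg over 18875 genes, to be 0.05 or less, with a 1.5-fold difference. The pairing comes from the treatment labels. Deviations of same-treatment arrays from their cell type means correlated at -0.06 (PBS), -0.07 (CTC41-EVs) and 0.16 (CTC41.5G-EVs). Data were simulated with the spread of this comparison, 200 changed genes among 18875 and no shift between arrays. There, 60% of genes changed by log2 1 and 87% of those changed by log2 2 were recovered, with 2 false calls. Far more genes were called in the data, and the simulation does not cover false calls that come from array scaling. Named genes follow a fixed rule: per list up to 4 called members with the largest difference in each direction and up to 2 retained ones with the smallest, the leading genes of each fate, and the 6 markers. The text says where it departs from this. The comparison, the 48 gene lists and the tests were chosen with earlier results of these data known. Alternatives covered scaling, floors, the trend, the block, a rank-sum test and leaving out each array. List medians with gained and lost genes set to their difference from the floor were added after the results were seen. The number of arrays limits the precision.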

Additional observations from a re-analysis of the deposited data

Results flagged for a closer look

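The gene lists here drew attention because the median difference of platelets minus MKP arrays had opposite signs between treatments, with 1 pair of arrays per treatment, so the difference between treatments was not tested. Values run from PBS through CTC41-EVs to CTC41.5G-EVs. The eicosanoid pathway had medians of 0.10, -0.030 and -0.064. MHC class I and peptide loading had 0.17, 0.0045 and -0.0056, and splicing factors 0.34, 0.086 and -0.032. Nuclear pore and transport genes had 0.18, -0.0029 and -0.081, and mitochondrial ribosome genes 0.054, -0.051 and -0.090. Glycolysis had 0.017, -0.036 and 0.12, and iron and haem genes 0.13, 0.12 and -0.073. Stem and progenitor markers had 0.076, -0.022 and -0.26, and stromal and endothelial markers 0.024, 0.016 and -0.027. In 8 of these 9 lists the PBS pair was positive and the CTC41.5G-EVs pair negative. The lists were selected for opposite signs, so that count does not measure an effect of treatment. Medians over protein-coding genes without chemosensory receptors differed between the pairs too, at -0.18, -0.17 and -0.28.

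Probes outside the gene comparison carried signal above background. Of 39938 probes that name no gene, 25.6% lay above the detection floor in platelets and 10.8% on the MKP arrays. Of 2146 probes that name several genes, 55.5% lay above it in platelets and 23.2% on the MKP arrays.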

How the results depend on the processing

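Counts of calls depended on scaling, on which features were tested and on the test. Quantile normalization gave 2282 lower genes. Setting each array to the same median gave 4673 higher, 1911 lower and 3831 gained. Centring arrays on chemosensory receptor genes gave 7544 higher, 1044 lower, 5984 gained, 1086 enriched and 535 reduced. The share of calls that were higher was 38.7% as deposited, 64.5% after quantile normalization, 71.0% with equal medians and 87.8% with chemosensory centring. A testing floor at the 75th percentile gave 2356 lower genes, with fewer genes tested, and testing all probes gave 4658 higher and 12750 lower. Detection at the 90th percentile gave 1041 enriched, 2093 retained and 2584 reduced, and at the 99th percentile 171 enriched, 73 retained, 395 reduced and 62 lost. With 1 detection floor for all arrays 1425 genes were gained, 1401 enriched, 2607 retained and 2659 lost. Retained within 2-fold numbered 992. The exact rank-sum test, the kind the series' text names, called 0 higher and 0 lower, since 3 against 3 arrays cannot go below p = 0.1. None had an unadjusted p under 0.05 by it, against 14181 by limma.

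A median was counted as turning sign only where its 3 pairs of arrays shared a sign as deposited. Others are left out, such as that of mitochondrial ribosome genes, -0.033 as deposited and 0.27 after quantile normalization. Medians that turned sign were, after quantile normalization, 0.055 (all genes tested), 0.16 (nucleolus and ribosome biogenesis), 0.11 (mitosis), 0.21 (tRNA synthetases), 0.17 (nucleotide synthesis), 0.027 (T and NK cell markers), 0.17 (haematopoietic microRNAs), 0.033 (the noncoding RNA list), 0.10 (protein-coding genes) and 0.12 (Snora genes). With equal medians they were 0.11 (all genes tested), 0.23 (nucleolus and ribosome biogenesis), 0.019 (DNA replication), 0.16 (mitosis), 0.26 (tRNA synthetases), 0.20 (nucleotide synthesis), 0.12 (T and NK cell markers), 0.22 (haematopoietic microRNAs), 0.12 (the noncoding RNA list), 0.16 (protein-coding genes) and 0.16 (Snora genes). With chemosensory centring they were 0.45 (all genes tested), 0.56 (nucleolus and ribosome biogenesis), 0.35 (DNA replication), 0.49 (mitosis), 0.60 (tRNA synthetases), 0.54 (nucleotide synthesis), 0.23 (B lymphoid markers), 0.45 (T and NK cell markers), 0.56 (haematopoietic microRNAs), 0.45 (the noncoding RNA list), 0.49 (protein-coding genes), 0.33 (transcribed pseudogenes), 0.22 (all lncRNA genes), 0.25 (guide RNA genes), 0.20 (miscellaneous RNA genes), 0.50 (Snora genes) and 0.099 (other microRNA genes). With no testing floor they were -0.017 (monocyte and macrophage markers) and -0.026 (pseudogenes), and with the floor at the 75th percentile 0.013 (haematopoietic microRNAs) and 0.22 (the noncoding RNA list). Differences of named genes that turned positive with chemosensory centring were 0.070 (Hps1), 0.010 (Plcb2), 0.12 (Gng2), 0.12 (Rrp12), 0.12 (Ipo4), 0.069 (Pold1), 0.086 (Mcm5), 0.062 (Aurkb), 0.094 (Vars2), 0.0997 (Cars), 0.12 (Mars1), 0.066 (Lsm2), 0.097 (Mrpl37), 0.0063 (Dtymk), 0.11 (Impdh1), 0.061 (Tfr2), 0.025 (Cd22), 0.0096 (Pdgfrb), 0.12 (Col1a1), 0.095 (Ptprv) and 0.10 (Snhg17), none of them called there. The named genes given here were called lower on the deposited values, and uncalled genes whose sign turned are not listed. Apart from scaling and the floors the cause of these shifts was not tested.

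The fit without the replicate block gave 3064 higher and 4850 lower genes. Leaving out 1 array at a time, which also removes its partner's information, gave 2838 to 3211 higher, 4168 to 5307 lower, 2354 to 2664 gained, 484 to 581 enriched, 404 to 619 retained, 1141 to 1301 reduced and 128 to 178 lost. Without the platelet PBS array the median of splicing factors was 0.060 in place of 0.18, and that of nucleotide synthesis genes -0.32 in place of -0.17. Over all alternatives, named genes were counted as unchanged in 3766 cases, which include genes not called as deposited whose sign turned. Calls were lost in 166 cases and gained in 29, and genes called as deposited turned sign in 21.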
